A study of Mus musculus with 8 samples.

Results

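Prefoldin is the cochaperone that takes newly made actin and tubulin chains from the ribosome and passes them to the cytosolic chaperonin. The genes described here are those of its 6 subunits, Pfdn1, Pfdn2, Vbp1, Pfdn4, Pfdn5 and Pfdn6, among 37310 genes in the deposited table. They were selected on family membership after the rise of Pfdn4 FPKM with triclocarban had been seen in these same libraries. All 6 passed the filter on low values, which kept the 12941 genes that reached 1 FPKM in 4 or more of 8 libraries. FPKM are fragments per kilobase of transcript, scaled to each library's mapped fragments.

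The libraries held polyadenylated RNA of mouse 2-cell embryos, grown from fertilized eggs in G1 medium. The control group (4 libraries) received the solvent DMSO, and the treated group (4 libraries) 6 µM triclocarban, an antibacterial compound of soaps and other care products (TCC in the labels). No strain, age or genotype is given, and nothing in the labels tells if each library had its own culture. The p-values therefore rest on the spread among these 8 libraries, part of which may be technical. The aim stated in the series title is the effect of the compound on the passage from maternal to zygotic transcripts and on epigenetic modifications.

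The prefoldin complex is a hexamer with the shape of a jellyfish. Its core is made of alpha-type subunits, encoded by Vbp1 and Pfdn5, and the beta-type subunits, encoded by Pfdn1, Pfdn2, Pfdn4 and Pfdn6, stand on that core with coiled-coil arms that hold the unfolded chain. Actin and tubulin are the main clients of this route, and they build the cortex and the spindle of the cleaving embryo. PFDN2 and PFDN6 also serve in a separate prefoldin-like complex, together with URI1, UXT and PDRG1.

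Between 12828 and 13541 genes reached 1 FPKM in the control libraries and between 11788 and 11957 in the treated ones. Controls 1 and 2 resembled each other (correlation of log2(FPKM + 1) across tested genes 0.974), as did controls 3 and 4 (0.976), while the pairs were less alike (0.874 to 0.907). Against the treated libraries, controls 1 and 2 gave 0.837 to 0.884, and controls 3 and 4 gave 0.696 to 0.740. Triclocarban library 2 stood apart from the other treated libraries (0.909 to 0.917, against 0.967 to 0.982 among them). Results are therefore also given without each pair. Summed over the 5 markers of the 2-cell stage, the level was 413.9 to 508.3 FPKM in controls and 148.6 to 478.7 with triclocarban. Zscan4c rose (log2 change 1.27, limma adjusted p = 0.0297), while Eif1a (-2.97), Tdpoz4 (-1.51) and Zfp352 (-1.14) fell and Zscan4d did not pass. For each of these markers triclocarban library 2 was the lowest treated library. The 5 oocyte markers summed to 458.0 to 1414 FPKM in controls and 1390 to 1881 with triclocarban. Bmp15 carried most of that sum and rose, Zp3 fell (log2 change -1.14, limma adjusted p = 0.0123), and Gdf9, Zp2 and Mos did not pass. Bmp15 had a mean of 802.6 FPKM in controls 1 and 2, 257.7 in controls 3 and 4 and 1098 with triclocarban. In 4 of the 5 oocyte markers, controls 1 and 2 both lay above controls 3 and 4. The share of all tested genes with that order is not given here. The 8 cumulus cell markers summed to 5.06 to 9.46 and 9.37 to 18.2 FPKM, with Amh at 0 and 5 of the 8, Amh included, below 1 FPKM in every library. Cyp19a1 and Fshr rose and Tnfaip6 fell, from a mean of 3.30 to 0.33 FPKM. The 5 sperm markers summed to 1.12 to 5.80 and 7.06 to 10.4 FPKM, almost wholly from Prm2, and 3 of the 5 were below 1 FPKM in every library. Of the 3 blood markers, Hbb-bs was at 0 in every library, and the sums of 37.8 to 68.2 and 7.01 to 26.96 FPKM came almost wholly from the globin gene Hba-a1. The part of these shifts in the results below was not tested. In such bulk RNA, fewer cells of a type and less RNA per cell cannot be told apart.

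With triclocarban the subunit transcripts moved apart. Pfdn4, Pfdn1 and Pfdn5 had higher levels, Pfdn6 a lower one, and the intervals for Pfdn2 and Vbp1 spanned no change. Of the 5 subunit genes other than Pfdn4, 2 passed the test as higher (limma adjusted p under 0.05) beside 11.3% of all tested genes, and 1 passed as lower beside 30.8%. Together 42.1% of the tested genes passed in either direction, against 54.5% without controls 1 and 2 and 30.4% without controls 3 and 4. Of the same 5 genes, 2 had every treated library above every control (10.2% of tested genes) and 1 every treated library below (30.0%), where 40.2% of tested genes had such a gap in either direction. Because the same contrast led to the choice of the family, nothing is read from these counts. All tested genes together had a median log2 change of -0.19, the level against which the changes of the subunits can be set. With median-of-ratios scaling this median was 0.06, and 2637 genes passed as higher and 3187 as lower, where FPKM as deposited gave 1466 and 3981.

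**Figure D1:**
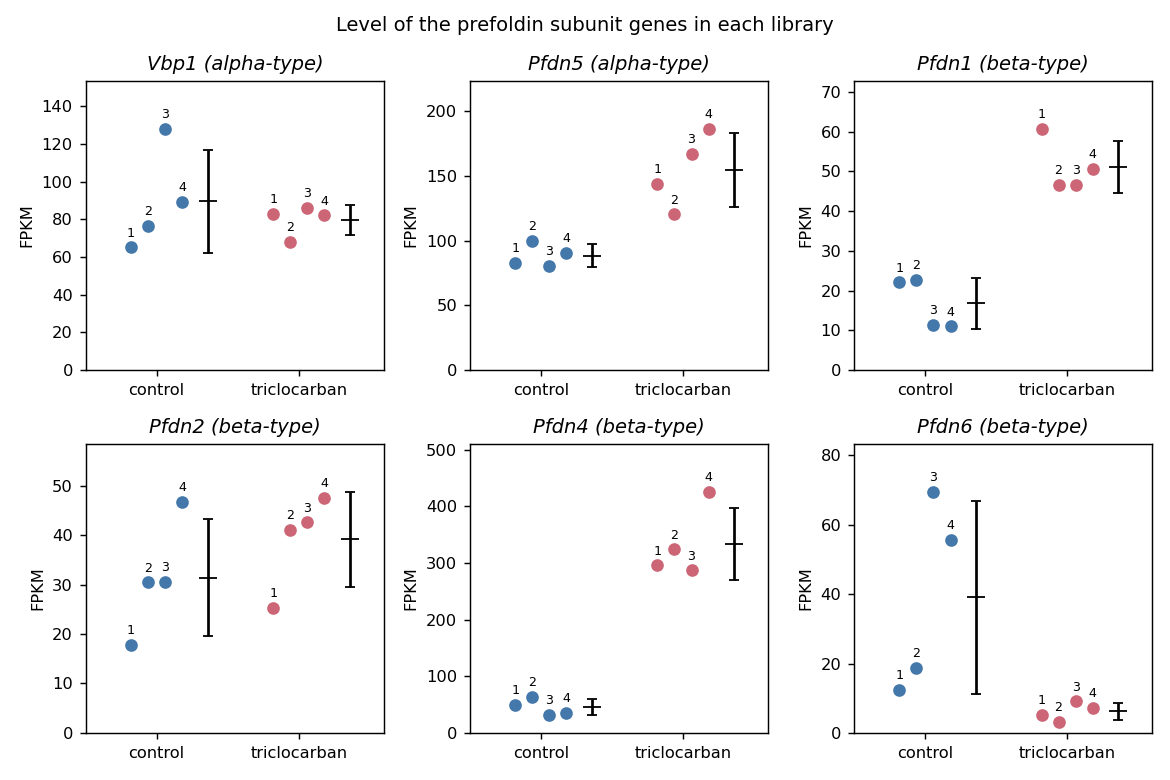
FPKM (linear vertical axes from 0, different for each panel) of the 6 prefoldin subunit genes. Points are libraries, labelled with the replicate number, and the black bars give the mean and SD of 4 libraries. Pfdn4, Pfdn1 and Pfdn5 lie higher and Pfdn6 lower in all 4 treated libraries, and the groups overlap for Pfdn2 and Vbp1.

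Among the alpha-type subunits, Pfdn5 (ENSMUSG00000001289.6, chromosome 15, 102326116 to 102331873, plus strand, GRCm38), also known as MM-1 for its binding to the oncoprotein MYC, had 82.66, 99.68, 80.53 and 90.63 FPKM in controls 1 to 4. In triclocarban libraries 1 to 4 it had 143.46, 120.21, 167.07 and 185.92 FPKM. Every treated library lay above every control, and the controls were close to each other, with no gap between the control pairs. The means were 88.4 ± 8.70 and 154.2 ± 28.5 FPKM (SD, n = 4 each), which gave 0.78 ± 0.24 (standard error) on the log2 scale (limma adjusted p = 0.0205). The call was lost without control 3 (adjusted p = 0.0574), triclocarban library 3 (0.0654) or triclocarban library 4 (0.0764), and without controls 3 and 4 together (0.0631). The change itself stayed between 0.69 and 1.09 under all 19 alternatives.

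Vbp1 (ENSMUSG00000031197.5, chromosome X, 75514299 to 75534942, plus strand) encodes the other alpha-type subunit, first known as a protein that binds the tumour suppressor VHL. Its FPKM was 65.07, 76.33, 127.75 and 89.36 in controls and 82.95, 67.99, 85.97 and 82.07 with triclocarban. The treated libraries all fell inside the range of the controls, in which control 3 was the highest. The log2 change was -0.13 with a 95% interval of -0.70 to 0.45 (limma adjusted p = 0.733), and its sign turned without control 3 (0.06) or with median-of-ratios scaling (0.18). Relative to Vbp1, Pfdn5 stood at 0.63 to 1.31 times its level in the controls and at 1.73 to 2.27 times in the treated libraries. This ratio of transcript levels thus varied within the controls and was higher in every treated library than in any control. It was not tested.

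Among the beta-type subunits, Pfdn4 (ENSMUSG00000052033.7, chromosome 2, 170496428 to 170519123, plus strand) is the member whose rise drew attention to the family, so its values are given as a description, with no test. Controls 1 to 4 had 49.32, 63.56, 32.08 and 35.60 FPKM, and triclocarban libraries 1 to 4 had 295.65, 324.05, 286.77 and 425.39 FPKM. The lowest treated library stood far above the highest control. The means of 45.1 ± 14.4 and 333.0 ± 63.6 FPKM (SD, n = 4 each) differed by a factor of 7.38, or by 2.89 ± 0.28 (standard error) on the log2 scale. Leaving out controls 3 and 4 gave 2.53, and leaving out controls 1 and 2 gave 3.24. Only 0.14% of the tested genes had a larger change, and by level Pfdn4 went from rank 1381 to 2725 in the controls to rank 164 to 270 in the treated libraries, among the 12941 tested genes.

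Pfdn1 (ENSMUSG00000024346.5, chromosome 18, 36403676 to 36454524, minus strand), another beta-type subunit, had 22.07, 22.72, 11.45 and 11.00 FPKM in controls and 60.62, 46.51, 46.63 and 50.58 with triclocarban. All treated libraries were above all controls, and controls 1 and 2 lay above controls 3 and 4. Its group means were 16.8 ± 6.46 and 51.1 ± 6.64 FPKM (SD, n = 4 each), 1.61 ± 0.30 (standard error) apart on the log2 scale (limma adjusted p = 0.00126). The call held under all 19 alternatives. The smallest change, 1.15, came without controls 3 and 4, and the largest, 2.08, without controls 1 and 2.

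Pfdn2 (ENSMUSG00000006412.4, chromosome 1, 171345670 to 171359254, plus strand), the beta-type subunit shared with the prefoldin-like complex, had 17.87, 30.44, 30.45 and 46.70 FPKM in controls and 25.32, 41.06, 42.56 and 47.53 with triclocarban. The groups overlapped, and the first library of each group was its lowest. The log2 change was 0.35 with a 95% interval of -0.36 to 1.06 (limma adjusted p = 0.415). Against controls 3 and 4 alone it was 0.01, and against controls 1 and 2 alone 0.68.

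Pfdn6 (ENSMUSG00000024309.7, chromosome 17, 33938821 to 33940343, minus strand), a beta-type subunit encoded by a short gene of the major histocompatibility region and likewise shared with the prefoldin-like complex, was the member that fell. Controls 1 to 4 had 12.49, 18.62, 69.47 and 55.57 FPKM, and triclocarban libraries 1 to 4 had 5.25, 3.28, 9.10 and 7.13 FPKM. All treated libraries lay below all controls, and the controls themselves parted into a low pair (1 and 2) and a high pair (3 and 4). The means were 39.0 ± 27.8 and 6.19 ± 2.50 FPKM (SD, n = 4 each), which lie -2.23 ± 0.51 (standard error) apart on the log2 scale (limma adjusted p = 0.00463). This value depended on which controls were kept: it was -1.25 without controls 3 and 4 (adjusted p = 0.0357) and -3.21 without controls 1 and 2 (adjusted p = 0.000208).

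**Figure D2:**
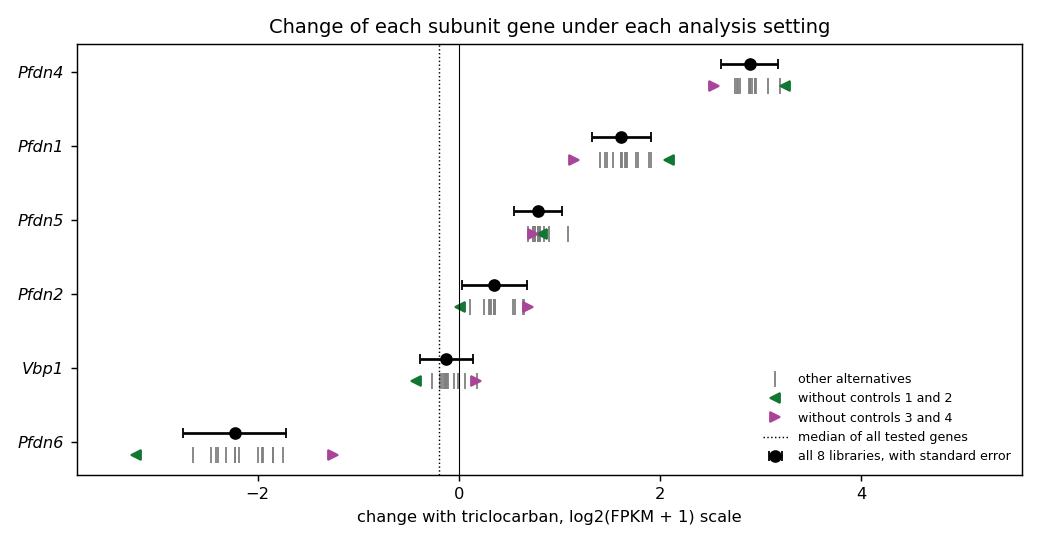
Change with triclocarban on the log2(FPKM + 1) scale (horizontal axis) for each subunit gene. Black points give the fit to all 8 libraries with its standard error, grey ticks the other alternatives, triangles the fits without a pair of controls, and the dotted line the median of all tested genes. Pfdn4, Pfdn1 and Pfdn5 stay above 0 and Pfdn6 below it in every fit, while the size of the Pfdn6 change runs from -3.21 to -1.25.

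Since FPKM is scaled per length, the levels of the subunits can be set side by side, although the transcript lengths behind the values are not known here. In controls the order by mean level was Vbp1 (89.6 FPKM), Pfdn5 (88.4), Pfdn4 (45.1), Pfdn6 (39.0), Pfdn2 (31.4) and Pfdn1 (16.8). Only the step from Pfdn5 to Pfdn4 was free of overlap between the libraries of these neighbours. With triclocarban the order was Pfdn4 (333.0), Pfdn5 (154.2), Vbp1 (79.7), Pfdn1 (51.1), Pfdn2 (39.1) and Pfdn6 (6.19), the same in each of the 4 libraries, and only Pfdn1 and Pfdn2 overlapped in range. The controls showed 4 different orders in 4 libraries.

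Summed over the 6 genes, the level was 249.5, 311.4, 351.7 and 328.9 FPKM in controls and 613.3, 603.1, 638.1 and 798.6 with triclocarban. Without Pfdn4 the sums were 200.2 to 319.6 and 279.1 to 373.2 FPKM, and the groups overlapped. Pfdn4 alone held 15.0 ± 5.89% of the family sum in the control group and 50.0 ± 4.22% in the treated group (SD, n = 4 each). The share of Pfdn6 was 5.00, 5.98, 19.8 and 16.9% in controls 1 to 4 and 0.54 to 1.43% with triclocarban. The span between the highest and the lowest subunit was 5.35 to 11.2 times in the controls. In the treated libraries it was 31.5 to 98.9 times, with Pfdn4 at the top and Pfdn6 at the bottom each time. These shares follow from the levels above, on which the family was chosen, and carry no test.

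**Figure D3:**
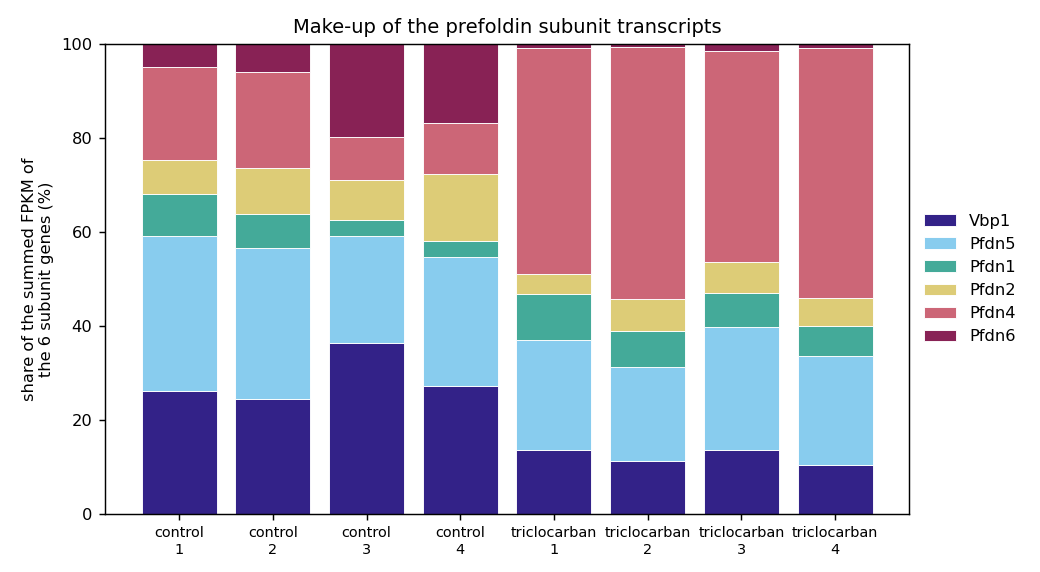
Share of each subunit gene in the summed FPKM of the 6 prefoldin genes (vertical axis, %), 1 bar for each library. Pfdn4 takes 9.12 to 20.4% in controls and 44.9 to 53.7% with triclocarban, and the Pfdn6 band at the top shrinks to at most 1.43%.

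The sequence upstream of the start of transcription is shown for Pfdn4 and Pfdn5, which had higher levels, and for Pfdn6, which fell, so that the members that moved apart can be compared. Each is the 250 bases before the RefSeq start, 5′ to 3′ on the strand of the gene (GRCm38.p6): chr2:170496178-170496427 (plus strand) for Pfdn4, chr15:102325866-102326115 (plus strand) for Pfdn5 and chr17:33940344-33940593 (minus strand) for Pfdn6. Capitals mark matches to any of 8 motifs searched on both strands: TATAAA as the TATA box, the letters CCAAT as the box of that name, GGGCGG as the GC box, CCGGAAG as the core of ETS sites, CACGTG as the E-box, TGACG as the CRE core, GCATGCG as the core of NRF1 sites and TAATCC as a homeodomain site of the bicoid type.
Pfdn4: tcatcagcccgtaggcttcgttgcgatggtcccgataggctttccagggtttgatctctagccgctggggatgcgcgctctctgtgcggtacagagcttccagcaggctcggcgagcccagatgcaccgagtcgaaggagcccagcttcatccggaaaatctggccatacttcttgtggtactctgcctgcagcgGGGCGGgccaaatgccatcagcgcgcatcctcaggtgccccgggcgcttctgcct
Pfdn5: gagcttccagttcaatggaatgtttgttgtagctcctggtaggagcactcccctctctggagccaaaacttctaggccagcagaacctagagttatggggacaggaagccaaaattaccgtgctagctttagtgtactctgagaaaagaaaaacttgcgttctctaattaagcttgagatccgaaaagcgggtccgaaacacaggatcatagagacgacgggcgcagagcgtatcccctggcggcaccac
Pfdn6: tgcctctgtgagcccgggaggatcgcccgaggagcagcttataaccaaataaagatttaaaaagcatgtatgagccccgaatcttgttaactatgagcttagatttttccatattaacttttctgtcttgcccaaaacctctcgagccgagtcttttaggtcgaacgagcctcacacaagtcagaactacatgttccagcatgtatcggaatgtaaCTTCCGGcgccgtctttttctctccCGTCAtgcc
In the Pfdn4 window 1 GC box was found, its first base 55 bases before the start, and 32.7% of the 32851 RefSeq windows of this length hold such a match. The Pfdn5 window held none of the 8 motifs. In the Pfdn6 window an ETS core lay on the opposite strand 34 bases before the start, a motif found in 6.91% of windows, and a CRE core lay 9 bases before the start on the same opposite strand, found in 17.8%. Pfdn6 has another RefSeq start, with the window chr17:33940331-33940580 (not shown). The same matches lie 47 and 22 bases before that start. The matches did not overlap each other.

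The windows also differed in base content and in what else they cover. G and C made up 62.0% of the Pfdn4 window, 50.0% of the Pfdn5 window and 46.4% of the Pfdn6 window, where the median of all windows was 52.4%. Of the Pfdn4 window, 187 bases are coding sequence of Cyp24a1 on the opposite strand, the gene of the enzyme that inactivates vitamin D. For Vbp1, which did not pass, 3 CCAAT boxes were found 100, 75 and 22 bases before the start, and 33.9% of all windows hold at least 1. That window also held a CRE core 14 bases before the start. For Pfdn2, the window before the start nearest to the annotated gene held 2 GC boxes and 1 CRE core. A match is a run of letters and was not tested as a site.

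The neighbours of the subunit genes were examined next, since overlapping or head-to-head genes can share reads or a promoter region. Cyp24a1 overlaps the first 718 bases of Pfdn4 on the opposite strand and had at most 0.27 FPKM in any library. Gm16796, an antisense gene inside Pfdn4, had at most 0.72 FPKM. The high Pfdn4 level therefore lay beside overlapping genes that were near 0 in every library. Whether the counting used strand is not stated, so reads of Pfdn4 and of these partners cannot be told apart.

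Pfdn6 starts 317 bases from the start of Wdr46, which runs the other way and encodes a nucleolar protein of ribosome assembly. Wdr46 had 3.45, 4.37, 6.22 and 4.30 FPKM in controls and 0.91, 0.57, 0.69 and 0.65 with triclocarban. It was lower in every treated library, like Pfdn6 (log2 change -1.69, standard error 0.23, limma adjusted p = 0.000206). Pfdn2 starts 24 bases from Nit1, the gene of an amidase, in the same head-to-head arrangement. Nit1 had 23.29, 20.58, 17.78 and 15.47 FPKM in controls and 11.63, 21.41, 12.12 and 13.90 with triclocarban, and like Pfdn2 it did not pass (log2 change -0.39, limma adjusted p = 0.274).

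Beside Pfdn5 and Pfdn1 lay genes that fell, as 30.8% of all tested genes did. Myg1, the gene of a mitochondrial and nuclear exonuclease, overlaps the last 165 bases of Pfdn5 on the same strand. Its level fell from 12.39, 16.24, 37.52 and 38.25 FPKM in controls to 2.50, 1.84, 3.29 and 1.36 with triclocarban, where Pfdn5 rose (log2 change -2.94, standard error 0.39, limma adjusted p = 0.000187). Reads in the overlap could belong to either gene. Cystm1, which ends 579 bases from the end of Pfdn1, had 35.09, 47.27, 52.77 and 69.46 FPKM in controls and 11.26, 9.90, 15.31 and 13.78 with triclocarban. It fell where Pfdn1 rose (log2 change -1.92, limma adjusted p = 0.000292). On the far side of Pfdn1, Hbegf, the gene of a growth factor of the EGF family, fell by 2.20 on the log2 scale (limma adjusted p = 8.7e-05). The other neighbours were mixed. Espl1, upstream of Pfdn5, fell (log2 change -1.11, limma adjusted p = 0.0107), while Aaas, downstream of it, did not pass (-0.10, adjusted p = 0.871). Beside Pfdn6, Rgl2 did not pass (-0.44, limma adjusted p = 0.34), and beside Pfdn2, which did not pass, Usf1 fell (-1.12, adjusted p = 0.00416). The nearest tested genes of Vbp1 (Gm8666 and Gm15065) and Pfdn4 (Gm14269 and 4930470P17Rik) did not pass. Klhdc9, which overlaps Pfdn2 on the opposite strand, had at most 0.49 FPKM, and the overlapping Gm37154 (Pfdn2) and CR974462.1 (356 bases of Pfdn6, opposite strand) are not analysed here. No test of the difference between neighbours was run.

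**Figure D4:**
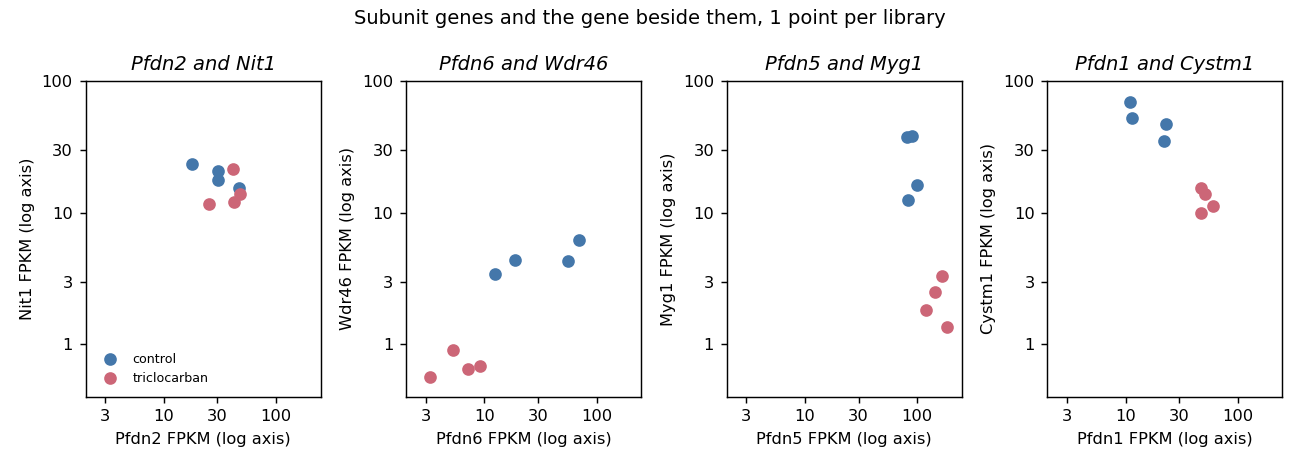
FPKM of 4 subunit genes (horizontal, log axis) against the gene beside them (vertical, log axis), with the same limits in all panels and 1 point for each library. Pfdn6 and Wdr46 are both lower with triclocarban, Pfdn5 and Pfdn1 lie to the right while Myg1 and Cystm1 lie lower, and the groups overlap for Pfdn2 and Nit1.

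Retrocopies could also draw reads from a subunit gene. Among annotated transcripts, stretches of at least 150 bases with at least 80% identity to the coding sequence were found at 1 pseudogene for Pfdn1, 2 for Pfdn2, 1 for Vbp1, 2 for Pfdn5 and 1 for Pfdn6. For Pfdn4 there was none. The closest was Gm5644, a pseudogene on chromosome X (145601837 to 145602301, minus strand), 97.0% identical to Pfdn5 over 462 bases. Pfdn5 is thus uncertain to the extent that the authors' counting split reads between such copies. Of these pseudogenes, a value is used here for Gm13612, the copy of Pfdn6, which had at most 0.03 FPKM in any library.

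The next partner of prefoldin is the cytosolic chaperonin, a double ring that closes around actin and tubulin. Of its 9 subunit genes on the list, 5 fell with triclocarban, 0 rose and 4 did not pass, beside 30.8% of all tested genes lower and 11.3% higher. Cct6a had 39.99, 42.38, 66.31 and 58.49 FPKM in controls and 9.55, 5.24, 14.78 and 11.90 in the treated libraries (log2 change -2.26, limma adjusted p = 0.000292). Tcp1 changed by -1.50, Cct6b, the form known from testis, by -1.50 and Cct4 by -1.46. Cct5 changed by -0.70 (adjusted p = 0.0343) and kept its call under 10 of 19 alternatives, and Tcp1 lost it without controls 3 and 4 (adjusted p = 0.0517). The median log2 change over the 9 genes was -0.70, beside -0.19 for all tested genes. For 8 of the 9, controls 1 and 2 both lay below controls 3 and 4, as for Pfdn6. Of the 46 tested genes of this and the pathway lists below, 21 had this split and 17 the reverse. Its share among all tested genes is not given here, so nothing is read from it. Cct2, at -0.01, and Cct7, at -0.04, were the closest to no change, with limma adjusted p-values of 0.983 and 0.925. At an unadjusted p under 0.05 in the limma fit, likewise 0 of the 9 were higher and 5 lower, and no other tool was run since the values are not counts. The share of all tested genes at that unadjusted threshold is not given here.

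In the prefoldin-like complex and the R2TP cochaperone bound to it, which helps to assemble RNA polymerases and other large complexes, 5 of 9 genes fell, 1 rose and 3 did not pass, beside 30.8% of all tested genes lower and 11.3% higher. Uxt, a prefoldin-like alpha-type subunit, had 14.86, 18.48, 41.29 and 38.54 FPKM in controls and 4.17, 2.63, 3.70 and 4.46 in the treated libraries (log2 change -2.52, limma adjusted p = 0.000254). Pdrg1, a prefoldin-like beta-type subunit, changed by -2.40 (limma adjusted p = 0.000141). Thus both fell as Pfdn6 did, while Uri1, the scaffold of that complex, had 13.9 ± 3.73 and 17.0 ± 5.15 FPKM (SD, n = 4 each) and did not pass (limma adjusted p = 0.487). The ATPase gene Ruvbl1 changed by -2.25, the shared RNA polymerase subunit gene Polr2e by -1.73 and Pih1d1 by -0.85. The ATPase partner Ruvbl2 had 14.6 ± 1.46 and 17.9 ± 2.81 FPKM (SD, n = 4 each) and did not pass. The 1 higher gene, Wdr92, was at 9.32 FPKM in triclocarban library 2, inside the control range of 6.33 to 11.29, and at 33.3 to 45.83 in the other treated libraries. Its call held under 13 of 19 alternatives, as did that of Pih1d1. The median over the list was -0.85.

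Tubulin, once released by the chaperonin, is assembled into its dimer by tubulin cofactors. Tbca, which holds beta-tubulin, rose from 110.75, 141.48, 112.66 and 134.27 FPKM in controls to 205.69, 244.42, 275.66 and 301.44 in the treated libraries (log2 change 1.03, limma adjusted p = 0.00481). Tbcc fell by 2.79 and Tbcb, which binds alpha-tubulin, by 1.84. In all, 1 of the 5 tested cofactor genes rose, 2 fell and 2 did not pass, with Tbcd and Tbcel below the filter. These counts stand beside 11.3% of all tested genes higher and 30.8% lower. Of the phosducin-like regulators of the chaperonin, Pdcl fell by 1.28 and Pdcl3 and Txndc9 did not pass, while Pdcl2 was below the filter.

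Of the actin and tubulin genes, the clients of this route, 18 of 21 were tested, 3 fell, 0 rose and 15 did not pass, with a median log2 change of -0.05. Among all tested genes 30.8% were lower and 11.3% higher. Tubb5 changed by -1.40, Tuba1a by -1.08 and Tubb4b, the most abundant of them at 306.3 ± 30.8 and 168.7 ± 51.4 FPKM (SD, n = 4 each), by -0.91. The calls of Tuba1a and Tubb4b held under 17 and 14 of 19 alternatives. Actb had 59.6 ± 17.0 and 66.8 ± 20.6 FPKM (limma adjusted p = 0.759) and Actg1 26.2 ± 15.6 and 45.6 ± 2.58 FPKM (limma adjusted p = 0.0629). This picture depended on the setting, as did the count over all tested genes. With FPKM as deposited, 0 genes of this list passed as higher, beside 1466 of the 12941 tested genes. The counts were 4 beside 2637 with median-of-ratios scaling, 5 beside 2915 with quantile normalization and 7 beside 2838 without controls 1 and 2. With the replicate number as a block in the fit they were 2 (Actg1 and Tubb3) beside 1544. In 14 of the 18, controls 1 and 2 both lay above controls 3 and 4, as in 17 of the 46 tested genes of all pathway lists, these included. How common that order is among all tested genes is not given here, so nothing is read from it. Tubulin and actin genes are close copies of each other, so reads shared between them cannot be assigned from these values. At an unadjusted p under 0.05 in the limma fit, 3 genes of the list were higher (Actg1, Tubb3 and Tube1) and 4 lower. The shares of all tested genes above are for adjusted p, so these unadjusted counts have no share to stand beside.

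**Figure D5:**
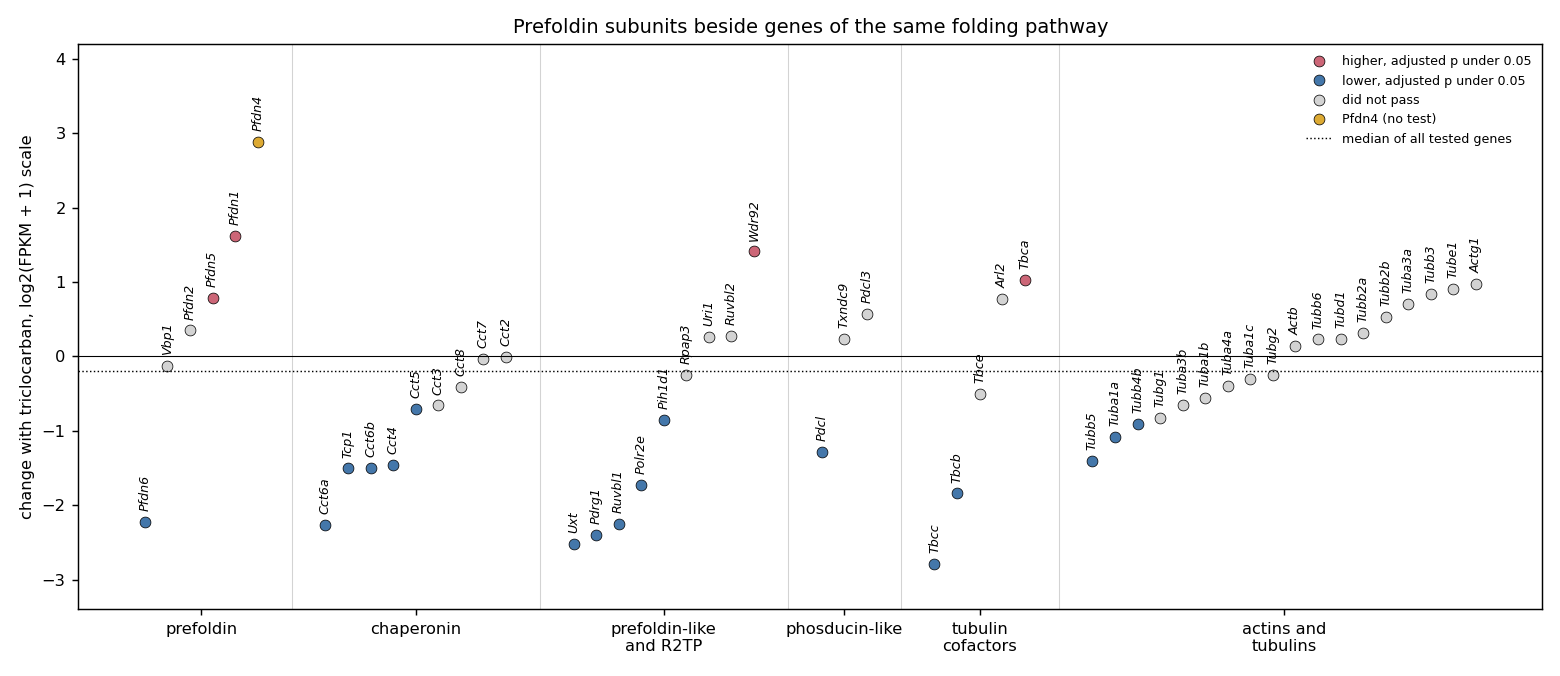
Change with triclocarban on the log2(FPKM + 1) scale (vertical axis) of each prefoldin subunit gene and of the tested genes of the listed folding pathway, ordered by change within each list. Colours give the outcome of the limma test, Pfdn4 carries no test, and the dotted line is the median of all tested genes (-0.19). The prefoldin genes spread from -2.23 to 2.89, and the chaperonin genes lie between -2.26 and -0.01.

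The genes of 2 proteins known to bind a single subunit both fell, where 30.8% of all tested genes were lower. Vhl, whose protein binds VBP1, had 23.22, 27.19, 49.34 and 55.24 FPKM in controls and 2.60, 2.62, 4.12 and 3.40 in the treated libraries (log2 change -3.17, limma adjusted p = 5.86e-05). Myc, whose protein binds PFDN5, had 3.75 ± 1.72 and 0.46 ± 0.18 FPKM (SD, n = 4 each, log2 change -1.64). Beside them, Vbp1 did not pass and Pfdn5 rose.

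The genes whose levels followed each subunit most closely were found by Pearson correlation of log2(FPKM + 1) over the 8 libraries, among 10297 named protein-coding genes. All of these points share the libraries and the difference between the groups, so the values are a description. For Pfdn4 they were Mrps33 (r = 0.997), Nae1 (0.996), Gnpda2 (0.993), Kdm2b (0.992) and Asz1 (0.991). Mrps33, a mitochondrial ribosomal protein gene, had 45.7 ± 13.3 and 218.8 ± 21.8 FPKM, and Nae1, which encodes a subunit of the NEDD8-activating enzyme, had 92.1 ± 18.8 and 333.0 ± 30.2 FPKM (SD, n = 4 each). In each of the 5, controls 1 and 2 lay above controls 3 and 4, as in Pfdn4, which their choice by correlation over these libraries makes likely.

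For Pfdn1 the closest were Wdr76 (r = 0.996) and Dlat (0.995), and for Pfdn5 the proteasome gene Psmb6 (0.995) and Emp2 (0.992). Those of Pfdn6 were the Mediator gene Med4 (0.997), at 221.6 ± 122.3 and 55.9 ± 13.4 FPKM, and the proteasome gene Psmd14 (0.995), at 80.7 ± 53.8 and 17.1 ± 4.04 FPKM (SD, n = 4 each). Both had a high and a low pair of controls, as Pfdn6 had, which is likely for genes chosen by correlation with it over the same libraries. The values were lower for the members that did not pass: Srrm1 (0.929) and Rad1 (0.918) for Pfdn2, and Rbm12 (0.960) and Pih1d2 (0.957) for Vbp1. Lower values are likely for members without a clear difference between the groups, so nothing is read from this. Rbm12 (means 2.42 and 1.62 FPKM) and Pih1d2 (2.225 and 1.665 FPKM) are also near the filter on low values.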

How the data were processed

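Polyadenylated RNA of 2-cell embryos was sequenced in 4 DMSO and 4 triclocarban libraries, grouped by the treatment in the labels. The deposited table gives FPKM for each gene and library. The submitters' processing notes name STAR, StringTie, featureCounts, DESeq2 1.30.1 and mm10, without saying which of them made the FPKM. The values are relative to the library's total, so a gene can shift because others do. Mitochondrially encoded genes held 16.6, 17.6, 22.6 and 24.3% of the summed FPKM in controls 1 to 4. In triclocarban libraries 1 to 4 they held 11.1, 17.6, 13.7 and 13.1%. The part of this in the changes above was not tested. The depth is unknown: below 3 FPKM, the commonest log2 ratio between libraries (bins of 0.005) was shared by 0.225 to 0.378% of genes, and whole reads could not be recovered.

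log2(FPKM + 1) was fitted with limma 3.58.1 (R 4.3.3, lmFit and eBayes with trend) for the 12941 genes that reached 1 FPKM in 4 or more of 8 libraries, with Benjamini-Hochberg adjustment over all of them and a threshold of 0.05. The fit was tested on simulated data with independent errors in each library. These data lack the pairs seen among the controls, so they give no error rate for the libraries used here. The added 1 makes the changes of low genes look smaller than they are. Identifiers of 32620 genes (87.4%) were matched to GENCODE M21, which gave symbols and GRCm38 coordinates. Coding sequences were compared with its transcripts by blastn 2.17.0. Promoter windows are from RefSeq, which matched 5 of the subunit genes. The window of Pfdn1 is not used here.

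Named are the 6 subunits, the genes of the lists, the overlapping and nearest tested genes, close copies, and the tested genes most like each subunit (5 for Pfdn4, 2 for each other), leaving out predicted genes and pseudogenes. The members and the lists were chosen with earlier results of these data known. Asdurf, a prefoldin-like gene, was not matched and is not analysed here. Alternatives were other pseudocounts, filters, scalings and fits, a replicate block, and leaving out each library or a pair of controls.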

Additional observations from a re-analysis of the deposited data

Results flagged for a closer look

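In 3 of 104 groups of 4 libraries, 1 library lay far from the other 3 by Dixon's test of the gap over the range at the 95% level, where chance alone gives about 1 in 20. Cct2, a chaperonin subunit gene, had 51.01 FPKM in triclocarban library 1 and 37.03 to 37.96 in the other treated libraries. Uri1, the scaffold of the prefoldin-like complex, had 24.63 FPKM in triclocarban library 2, beside 13.60 to 15.45 in the others. Pih1d1, of the R2TP cochaperone, had 8.49 FPKM in triclocarban library 1, beside 6.25 to 6.50 in the others. No prefoldin subunit gene had such a library in either group.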

How the results depend on the processing

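Under all 19 alternatives Pfdn4 stayed between 2.53 and 3.24 on the log2 scale, and Pfdn1 and Pfdn6 kept their direction and their call. Vbp1, which did not pass in any fit, changed sign with median-of-ratios scaling (0.18), without control 3 (0.057, and -0.26 to 0.057 over the fits leaving out 1 library) and without controls 3 and 4 (0.17). Of the subunits other than Pfdn4, 1 or 2 were higher when 1 library was left out, and 1 without controls 3 and 4. The difference in the Pfdn4 share of the family sum was 33.0 to 36.8 percentage points when 1 library was left out.

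Over all tested genes, 1466 were higher. This count was 2637 with median-of-ratios scaling, 2915 with quantile normalization, 953 to 1860 with 1 library left out, 2838 without controls 1 and 2 and 695 without controls 3 and 4. The count of lower genes, 3981, was 2492 with a filter of 5 FPKM, which tests fewer genes. Of the 46 tested genes of the pathway lists, which take in Vhl and Myc, 2 were higher and 18 lower. Among all tested genes 11.3% were higher and 30.8% lower. The count of higher pathway genes became 1 with no filter, 7 with median-of-ratios scaling and 10 with quantile normalization. It was 1 to 6 with 1 library left out, 11 without controls 1 and 2, and 1 without controls 3 and 4. Between 15 and 19 pathway genes were lower throughout. Apart from the smaller set of genes tested with the stricter filter, the cause was not tested. Of the 20 called pathway genes, 12 were called under all 19 alternatives. Another 2, Cct6b and Myc, were called wherever they were tested but have no value with the filter of 5 FPKM, and 6 lost the call under 1 or more alternatives.

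With the replicate number as a block, 1544 genes were higher, 4061 were lower and 4 pathway genes were higher, among them Actg1 (limma adjusted p = 0.0439) and Tubb3 (0.0481), which did not pass without the block. The deviations of same-numbered libraries correlated at 0.338, 0.053, 0.095 and 0.104, and those of differently numbered ones at -0.293 to 0.144. For controls 1, 3 and 4 the same-numbered treated library gave the highest value, and for control 2 it was triclocarban library 1 (0.144). Whether the numbers pair the libraries cannot be told from these values. The labels do not say that a number marks a shared source, so the main fit has no block. Since depth is unknown, no counting error can be given for the lower members.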
